A study of Mus musculus with 2 samples.

Results

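Transcripts of the major histocompatibility complex (MHC) and of the peptide-loading machinery were examined in cultured fibroblasts of mouse embryos at day 13.5, cells that build connective tissue. There was 1 library from cells labelled Ahi1-/- and 1 from wild-type (WT) cells, both from C57BL/6 mice and both grown in DMEM with 10% fetal bovine serum. Ahi1 encodes a protein at the base of the primary cilium. The members are the 45 rows, of 17260 in the deposited gene table, whose symbol is H2 with a hyphen and a capital letter (33 genes), or is 1 of 12 named genes: B2m, Tap1, Tap2, Tapbp, Tapbpl, Erap1, Nlrc5, Ciita, Cd74, Calr, Canx and Pdia3. They fall into 2 classical class I heavy chains, 22 nonclassical class I genes, 9 class II genes with Cd74 among them, 9 loading genes with B2m among them, and 2 transactivators. H2-Ke6, the remaining row, lies in the complex but encodes an enzyme (RefSeq synonym Hsd17b8) and no MHC molecule.

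MHC class I molecules are made of a heavy chain and the light chain beta-2-microglobulin, and show peptides from inside the cell to cytotoxic T cells. Peptides cut by the proteasome are pumped into the endoplasmic reticulum by the TAP transporter, trimmed there, and fitted into new class I molecules by tapasin and general chaperones. Class II molecules show peptides from the endocytic route to helper T cells and are mainly made by specialised antigen-presenting cells. Fibroblasts make class I constitutively and class II mostly after exposure to interferon gamma.

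The library labelled Ahi1-/- held 20820756 expected counts and the WT library 19067504. The members took 0.502% of the counts in the library labelled Ahi1-/- (95% exact Clopper-Pearson interval 0.499 to 0.505) and 0.466% in WT (0.463 to 0.469). Each group is 1 library, so the differences below have no replicate check and no test. They compare these libraries, not the genotypes, and all intervals cover counting error only. Ahi1 itself had 370 counts in the library labelled Ahi1-/- and 410 in WT, a log2 ratio of -0.16 (-0.37 to 0.05). The targeted gene therefore did not check the label, and every direction rests on reading the deposited column heads CON and EXP as WT and Ahi1-/-. A count summed over a whole gene does not show whether an exon is lost. All 11 fibroblast markers were present in both libraries, summing to 925091 counts in the library labelled Ahi1-/- and 283048 in WT. Of the 11, 8 were 2-fold or more above WT and 1 below it, against 16.0% and 10.3% of all genes with 50 counts or more. Their ratios ranged from that of Thy1, with 20631 counts in the library labelled Ahi1-/- and 258 in WT, to that of S100a4, with 6949 and 14597. The part of this difference in the members' values was not tested. In bulk RNA, fewer cells of a type and less RNA per cell cannot be told apart.

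Of the 26 members whose higher library had 50 counts or more, 20 lay within 2-fold and 6 differed by 2-fold or more. The other 19 members had fewer counts and were not called. Of the 6, H2-D1, H2-Q7, H2-T10 and H2-Ab1 had the higher value in the library labelled Ahi1-/-, and Tapbp and Cd74 the lower. These are 4 higher and 2 lower among the 26 members that reached 50 counts, or 15.4% and 7.69%. Among all 12075 genes that reached 50 counts, 16.0% were higher and 10.3% lower by the same rule, so the members' counts were near the background. At a 1.5-fold threshold 6 of the 26 members were higher and 8 lower, against 2850 and 2606 of the 12075 genes. The median log2 ratio, Ahi1-/- over WT, was -0.19 over the 26 members and -0.04 over all 12075 genes. The same 6 members, and no other, also appear among the 3872 genes of the second deposited table, which holds FPKM values. That table is from the same libraries and how its genes were chosen was not given, so the match is no independent check.

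**Figure D1:**
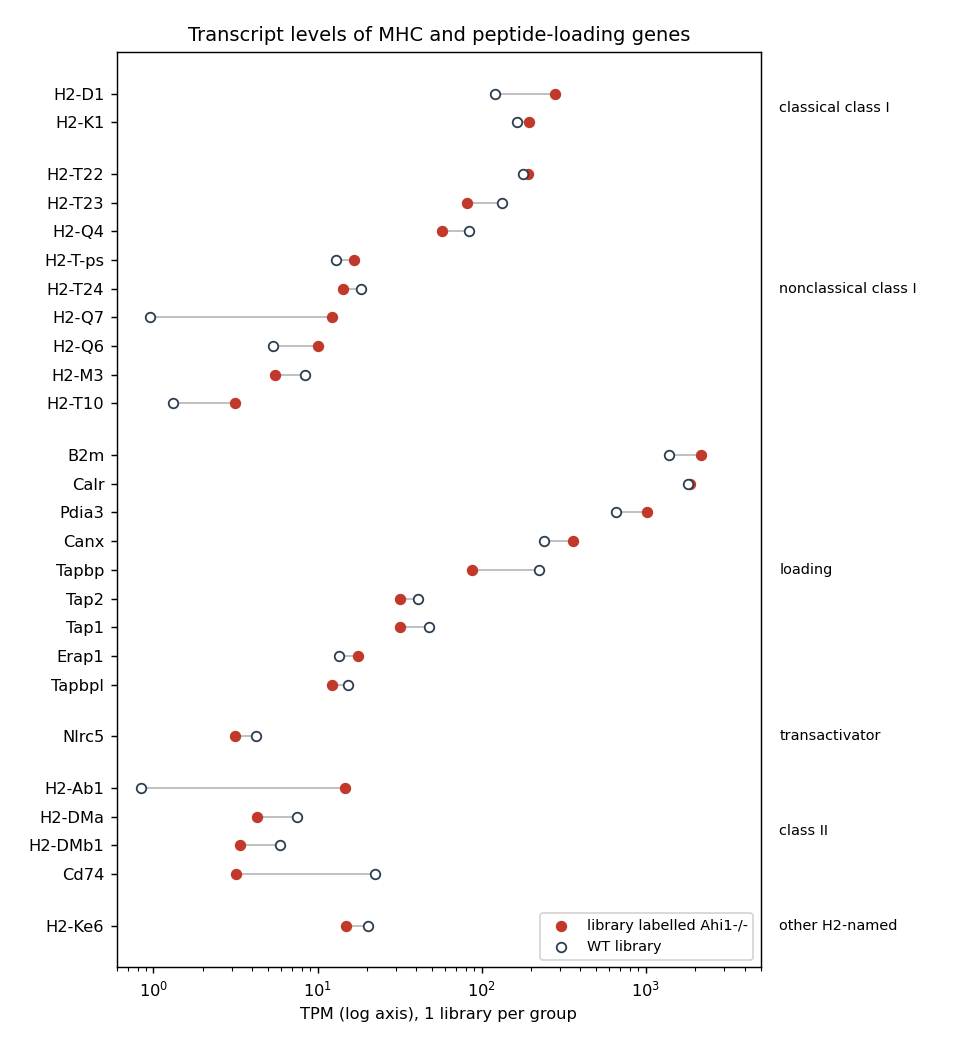
TPM (length-normalised transcript level, log axis) of the 26 members that reached 50 counts, by class. Filled points are the library labelled Ahi1-/- and open points the WT library (1 each); the widest gaps are those of H2-Ab1 (14.6 and 0.84 TPM), H2-Q7 (12.3 and 0.95 TPM) and Cd74 (3.17 and 22.2 TPM).

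The classical heavy chains differed from each other in how they moved. H2-K1 and H2-D1 encode the K and D molecules that present peptides to CD8 T cells. H2-D1 had 4341 counts in the library labelled Ahi1-/- and 1908 in WT, which are 281 and 121 TPM. That is a 2.25-fold difference (log2 1.17, 1.10 to 1.25), and its FPKM values were 124 and 59.3. H2-K1 had 2882 counts in the library labelled Ahi1-/- and 2506 in WT, or 193 and 163 TPM, a log2 ratio of 0.19 (0.11 to 0.27). The counting intervals of the pair do not overlap. The TPM level of H2-D1 was 1.46 times that of H2-K1 in the library labelled Ahi1-/- and 0.739 times in WT, so the order of the pair was opposite in the libraries. Summed over H2-K1 and H2-D1, there were 7222 counts in the library labelled Ahi1-/- and 4414 in WT (log2 0.70, 0.64 to 0.75).

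The promoters of the classical and Qa-2 type heavy chains are shown because these close copies had different ratios. The windows are from RefSeq (GRCm38.p6), 300 bases each, from 250 before to 50 after the transcript start, read 5′ to 3′ along the gene. They are chr17:34000298-34000597 on the minus strand for H2-K1 (the upstream of its listed windows), and on the plus strand chr17:35262844-35263143 for H2-D1, chr17:35424600-35424899 for H2-Q6 and chr17:35438905-35439204 for H2-Q7. Capitals mark matches, on either strand, to a kappaB motif (GGGNNTTCC), an interferon response core (GAANNGAAA, read here as TTTCACTTC), the Y box (CTGATTGG, read here as CCAATCAG) and a CRE-like motif (TGACGT).
H2-K1: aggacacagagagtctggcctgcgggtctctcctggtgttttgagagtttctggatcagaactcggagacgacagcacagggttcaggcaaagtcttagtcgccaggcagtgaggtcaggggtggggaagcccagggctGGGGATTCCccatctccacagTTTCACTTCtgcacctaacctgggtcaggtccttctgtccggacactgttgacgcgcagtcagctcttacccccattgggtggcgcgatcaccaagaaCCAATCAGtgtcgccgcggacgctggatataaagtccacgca
H2-D1: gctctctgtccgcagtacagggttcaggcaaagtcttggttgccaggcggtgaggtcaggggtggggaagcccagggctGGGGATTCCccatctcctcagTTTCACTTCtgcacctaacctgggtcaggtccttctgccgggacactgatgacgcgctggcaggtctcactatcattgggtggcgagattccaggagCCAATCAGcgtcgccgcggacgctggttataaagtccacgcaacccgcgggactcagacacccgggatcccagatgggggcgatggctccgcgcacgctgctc
H2-Q6: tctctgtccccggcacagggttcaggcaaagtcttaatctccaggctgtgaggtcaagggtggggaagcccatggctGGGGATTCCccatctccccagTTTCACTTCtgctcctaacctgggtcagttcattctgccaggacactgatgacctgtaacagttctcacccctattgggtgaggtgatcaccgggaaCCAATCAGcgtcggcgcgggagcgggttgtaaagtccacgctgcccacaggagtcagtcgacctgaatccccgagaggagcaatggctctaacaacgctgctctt
H2-Q7: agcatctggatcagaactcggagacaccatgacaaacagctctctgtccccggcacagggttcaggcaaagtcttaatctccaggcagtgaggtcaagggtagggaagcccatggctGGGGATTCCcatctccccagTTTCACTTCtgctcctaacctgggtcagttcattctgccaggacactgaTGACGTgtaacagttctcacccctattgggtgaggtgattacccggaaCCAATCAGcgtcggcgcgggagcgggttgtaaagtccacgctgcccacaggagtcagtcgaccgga

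Over the bases that the windows share, H2-K1 and H2-D1 were identical at 87.9% of 240 aligned positions, gaps included, and H2-Q6 and H2-Q7 at 97.3% of 261. All 4 windows hold the kappaB, interferon response and Y box letters in the same order. Counted from the transcript start, with bases before it negative, the matches in H2-D1 begin at -171, -150 and -53. In H2-K1 they begin at -111, -90 and 8 from the printed start, and at -125, -104 and -6 from its other listed start, so these distances depend on the annotated start. Among the printed windows H2-Q7 alone holds the CRE-like letters, at -64. Of the 45 members, 33 had a promoter window. The Y box letters were in 15 of those 33 (45.5%), against 4.70% of all 27025 genes with a window. The kappaB letters were in 8 of 33 (24.2%), against 6.58% of all genes, and the CRE-like letters in 6 (18.2%), against 8.37%. The interferon response core with the spacing GAANNGAAA was searched after the windows had been seen and was in 8 of 33, against 8.68% of all genes. With the spacing GAAANNGAA it was in 4 (12.1%), against 9.76%. Both spacings can match overlapping bases. Many members are copies of each other, so the windows are not independent, and a match of letters is not a bound site. Of the members with a kappaB match, the log2 ratios were 3.67 for H2-Q7, 1.17 for H2-D1, 0.84 for H2-Q6, 0.19 for H2-K1 and -0.61 for H2-Q4. The others, H2-Oa, H2-Aa and H2-M2, stayed under 50 counts. A link between the motifs and the ratios was not tested.

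**Figure D2:**
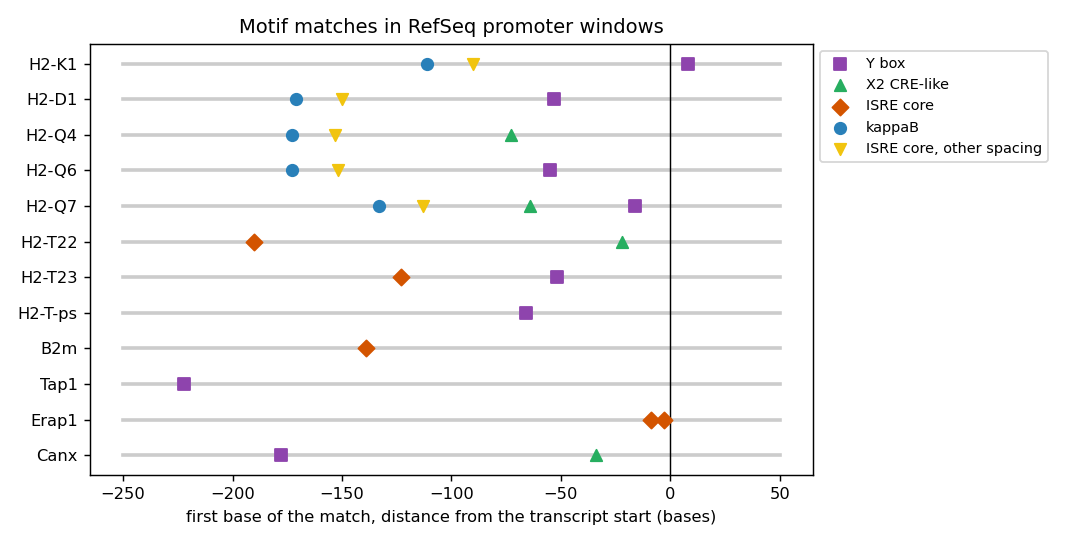
Position of motif matches in the RefSeq promoter windows of 12 members, as the distance in bases of the first base of the match from the transcript start (vertical line at 0). Each grey bar is 1 window of 300 bases; H2-K1, H2-D1, H2-Q4, H2-Q6 and H2-Q7 each have a kappaB match upstream of an interferon response match, while the window of B2m holds only the GAAANNGAA form of the interferon response core, at -139.

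The nonclassical class I genes showed no common direction. Of the 22, 9 reached 50 counts, and the median log2 ratio of the 9 was 0.02. Above WT by 2-fold or more were 2 of the 9, and 0 were below, against 16.0% and 10.3% of all genes. H2-Q7, which encodes a Qa-2 antigen, had 128 counts in the library labelled Ahi1-/- and 10 in WT (12.3 and 0.95 TPM; 5.39 and 0.46 FPKM). It was 12.7-fold higher (log2 3.67, 2.74 to 4.76). H2-T10, which RefSeq lists as a transcribed pseudogene, had 82 counts in the library labelled Ahi1-/- and 35 in WT, 2.32-fold higher (log2 1.22, 0.63 to 1.83). Its levels were low in both libraries, at 3.16 and 1.31 TPM.

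The abundant nonclassical genes lay within 2-fold. H2-T22, whose product binds gamma delta T cell receptors, had 2991 counts in the library labelled Ahi1-/- and 2931 in WT, a log2 ratio of 0.02 (-0.06 to 0.09). H2-T23 encodes Qa-1, a ligand of the NKG2A receptor of natural killer cells, and had 941 counts in the library labelled Ahi1-/- and 1594 in WT (log2 -0.77, -0.89 to -0.66). H2-Q4 had 908 and 1376 counts (log2 -0.61, -0.74 to -0.49) in the same order. These are the most abundant of the group, and of the 3 only H2-T22 has an interval that includes 0. H2-T24 had 257 counts in the library labelled Ahi1-/- and 345 in WT (log2 -0.44), and H2-M3, which presents formylated bacterial peptides, had 70 and 108 (log2 -0.64). H2-Q6 had 190 counts in the library labelled Ahi1-/- and 105 in WT (log2 0.84, 0.49 to 1.201), and H2-T-ps had 162 and 124 (log2 0.37).

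The other 13 nonclassical genes stayed under 50 counts in both libraries. H2-Q9 had 28 counts in the library labelled Ahi1-/- and 26 in WT, H2-Q10 had 17 and 12, H2-Q2 had 17 and 6, H2-M5 had 7 and 4, and H2-Q1 had 5 and 13. H2-M10.2 had 1 count in the library labelled Ahi1-/- and 5 in WT. H2-Bl, H2-M11 and H2-M2 were at 0 in the library labelled Ahi1-/-, with 4, 1 and 1 counts in WT. H2-M9, H2-M1 and H2-M10.5 had 3, 1 and 1 counts in the library labelled Ahi1-/- and 0 in WT, and H2-T3 had 1 and 3. At this depth a count of 0 allows up to 3 counts, or 0.150 CPM in the library labelled Ahi1-/- and 0.151 CPM in WT, so no difference was detectable for the genes at 0. Of the others, H2-Q2 had a log2 ratio of 1.49 with a wide interval (0.08 to 3.12).

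Counts of single class I genes depend on how reads were divided between near-identical copies. Of the 28 H2 genes with counts in the library labelled Ahi1-/-, 8 had whole numbers, and of the 30 in WT, 7 did; the rest had fractions, as estimated counts do when reads are shared out. GENCODE M21 transcripts were found for 32 of the 33 H2 members (all but H2-Q9), and 10 of them share at least 25% of their runs of 50 bases with a transcript of another gene. H2-T22 shares 44.7% of its runs, mostly with H2-T10, and H2-T10 shares 41.6%, mostly with H2-T22. The share was 34.9% for H2-Q7 and 35.0% for H2-Q6, each nearest to the other among the genes found, 39.2% for H2-Q4, 29.8% for H2-T23 and 29.4% for H2-T-ps. Runs shared with H2-Q9, which had no transcript there, could not be counted, so the shares of H2-Q7 and H2-Q6 may be too low. For the classical genes it was lower, at 14.3% for H2-D1 and 8.79% for H2-K1, and for H2-T24 and H2-M3 it was 3.23% and 0.58%. Outside class I, H2-DMb1 shares 27.2%, H2-Ke6 62.9% and Tapbp 21.02%, the last mostly with the predicted gene Gm19412. Over longer runs of 100 bases the share was 16.4% for H2-Q7, 10.2% for H2-T10, 4.64% for H2-D1 and 14.0% for Tapbp. The values of H2-Q7, H2-T10, Tapbp and H2-D1 as single genes are uncertain to the extent that reads from these stretches were divided.

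Sums over copies do not depend on how reads were divided among the summed genes, but still depend on reads shared with genes outside the sum. Of its runs of 50 bases, H2-Q7 shares 34.9% in all and 19.3% with H2-Q6. H2-Q6 shares 35.0% in all and 13.9% with H2-Q7. Over H2-Q6, H2-Q7 and H2-Q9 there were 346 counts in the library labelled Ahi1-/- and 140 in WT, 2.45-fold higher (log2 1.29, 1.01 to 1.59). Over H2-T10, H2-T22 and H2-T-ps the counts were 3236 and 3090 in the same order (log2 0.05, -0.02 to 0.13). H2-T22 holds 2991 and 2931 of these, so the sum says little about H2-T10. Over all 7 H2-Q members, where H2-Q4 dominates, there were 1293 counts in the library labelled Ahi1-/- and 1548 in WT (log2 -0.27, -0.38 to -0.17). Over all 6 H2-T members the counts were 4435 and 5032 (log2 -0.20, -0.25 to -0.14), and over the 8 H2-M members 83 and 120.

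Over all 24 heavy-chain genes there were 13033 counts in the library labelled Ahi1-/- and 11118 in WT, a 1.16-fold difference (log2 0.22, 0.18 to 0.25). The summed level was 873 TPM in the library labelled Ahi1-/- and 734 TPM in WT. Total heavy-chain transcript thus differed little, and its make-up differed more. H2-D1 made up 32.2% of the summed heavy-chain TPM in the library labelled Ahi1-/- and 16.4% in WT. The share of H2-T23 was 9.27% in the library labelled Ahi1-/- and 18.2% in WT, and that of H2-Q4 was 6.52% and 11.5%. H2-K1 held 22.1% and 22.2%, and H2-T22 held 22.1% and 24.4%.

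**Figure D3:**
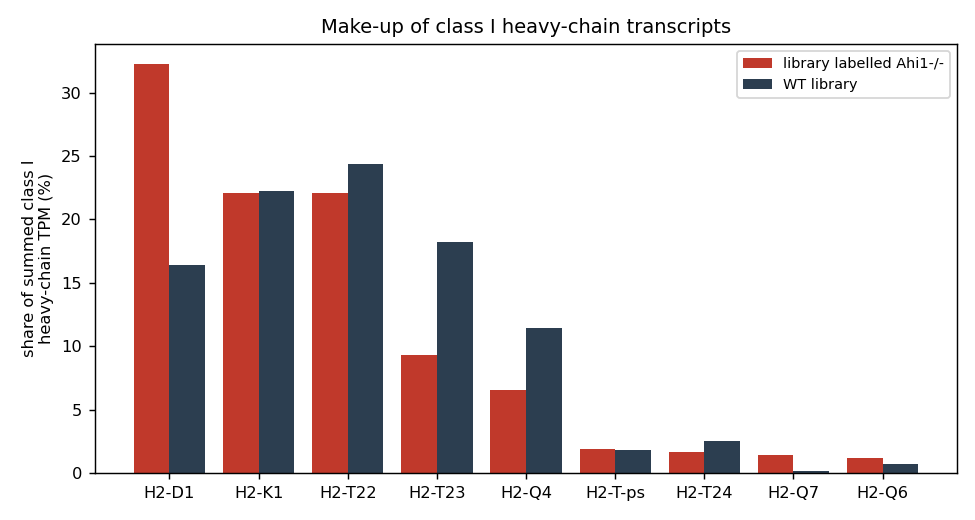
Share of the summed class I heavy-chain TPM (%) taken by the 9 genes with the largest shares in the library labelled Ahi1-/-. Bars are single libraries, Ahi1-/- left of WT; H2-D1 is at 32.2% and 16.4%, and H2-T23 at 9.27% and 18.2%.

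All 9 loading genes reached 50 counts, and their median log2 ratio was -0.01. Of the 9, 0 were above WT by 2-fold or more and 1, Tapbp, was below it, against 16.0% and 10.3% of all genes. Tapbp encodes tapasin, which bridges class I molecules to the TAP transporter and edits their peptides. It had 2160 counts in the library labelled Ahi1-/- and 5622 in WT, or 87.5 and 222 TPM (38.4 and 109 FPKM), and was 2.63-fold lower (log2 -1.39, -1.47 to -1.32). Tap1 and Tap2 encode the paired subunits of the peptide transporter. Tap1 had 845 counts in the library labelled Ahi1-/- and 1294 in WT (log2 -0.63, -0.75 to -0.50), and Tap2 had 715 and 933 (log2 -0.40, -0.54 to -0.25). Their TPM levels were close to each other in each library, with Tap1 at 31.9 and Tap2 at 32.0 TPM in the library labelled Ahi1-/-, against 47.6 and 40.8 TPM in WT. Tapbpl encodes a tapasin relative that acts apart from TAP, and had 229 counts in the library labelled Ahi1-/- and 293 in WT (log2 -0.37, -0.62 to -0.11). Tapasin transcript was at 2.75 times the TPM level of Tap1 in the library labelled Ahi1-/- and at 4.67 times in WT.

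The light chain and most general chaperones had more counts in the library labelled Ahi1-/-, all within 2-fold. B2m had 16110 counts in the library labelled Ahi1-/- and 10547 in WT, or 2177 and 1392 TPM (log2 0.60, 0.56 to 0.63). Its TPM level was 2.49 times that of all heavy chains together in the library labelled Ahi1-/- and 1.90 times in WT. Pdia3 encodes ERp57, the disulfide isomerase of the loading complex, and had 24110 and 16079 counts (log2 0.57) in the same order. Canx, the membrane lectin calnexin that holds new heavy chains, had 13884 counts in the library labelled Ahi1-/- and 9468 in WT (log2 0.54). Calr, its soluble relative calreticulin, had 31987 and 31901 (log2 -0.01, -0.03 to 0.01). Erap1, the peptidase that trims peptides in the endoplasmic reticulum, had 684 counts in the library labelled Ahi1-/- and 563 in WT (log2 0.27, 0.10 to 0.43). The class I transactivator Nlrc5 had 211 counts in the library labelled Ahi1-/- and 299 in WT (log2 -0.52, -0.78 to -0.26). H2-Ke6 had 125 and 175 counts (log2 -0.50).

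**Figure D4:**
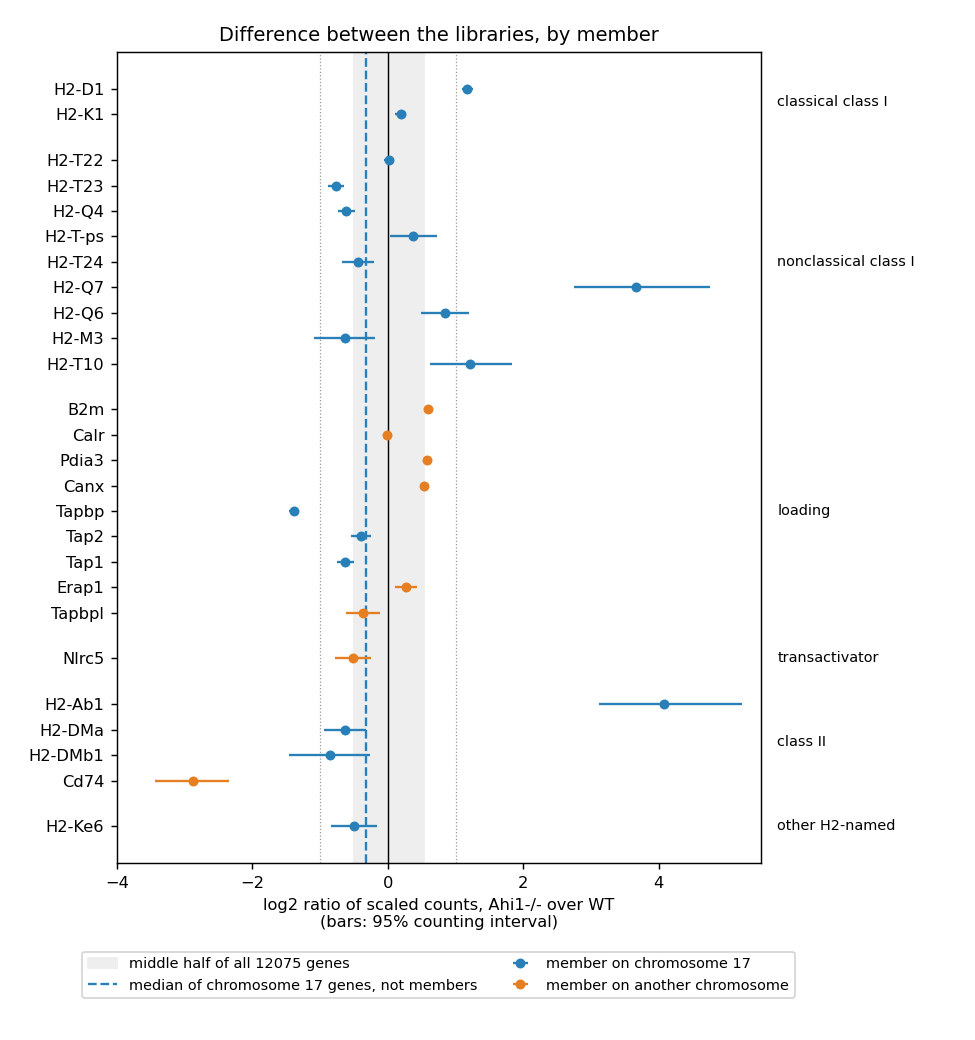
Log2 ratio of scaled counts, Ahi1-/- over WT, for the 26 members that reached 50 counts; bars are 95% counting intervals, dotted lines mark 2-fold, the grey band spans the quartiles of all 12075 genes (-0.51 to 0.53), and the dashed line is the median of chromosome 17 genes that are no members (-0.32). Points for H2-Ab1, H2-Q7, H2-T10 and H2-D1 lie to the right of the dotted lines, and those for Tapbp and Cd74 to the left.

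Genes of chromosome 17, where most members lie, had a lower median ratio than all genes. Of the 45 members, 36 lie on chromosome 17, all 33 H2 genes with Tap1, Tap2 and Tapbp. Among 585 chromosome 17 genes that are no members and reached 50 counts, 10.8% were higher by 2-fold or more and 12.6% lower, and the median log2 ratio was -0.32. Among the 18 members there that reached 50 counts, 4 were higher and 1 was lower, and the median was -0.42. Tap1 and Tap2 lay between the quartiles of the chromosome (-0.69 to 0.15), and Tapbp lay below them. Chromosome 8, which carries Calr and Nlrc5, had a median of -0.40 over its other genes. The medians were -0.15 for chromosome 2 with B2m and Pdia3, 0.12 for chromosome 11 with Canx, and 0.0042 for chromosome 18 with Cd74. They were 0.11 for chromosome 6 with Tapbpl, -0.03 for chromosome 13 with Erap1 and -0.14 for chromosome 16 with Ciita. Of the 111 other genes between the outermost H2 members, 73 reached 50 counts, of which 5 were higher and 12 lower; their median was -0.37. The part of these chromosome-wide differences in the members' ratios was not tested.

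**Figure D5:**
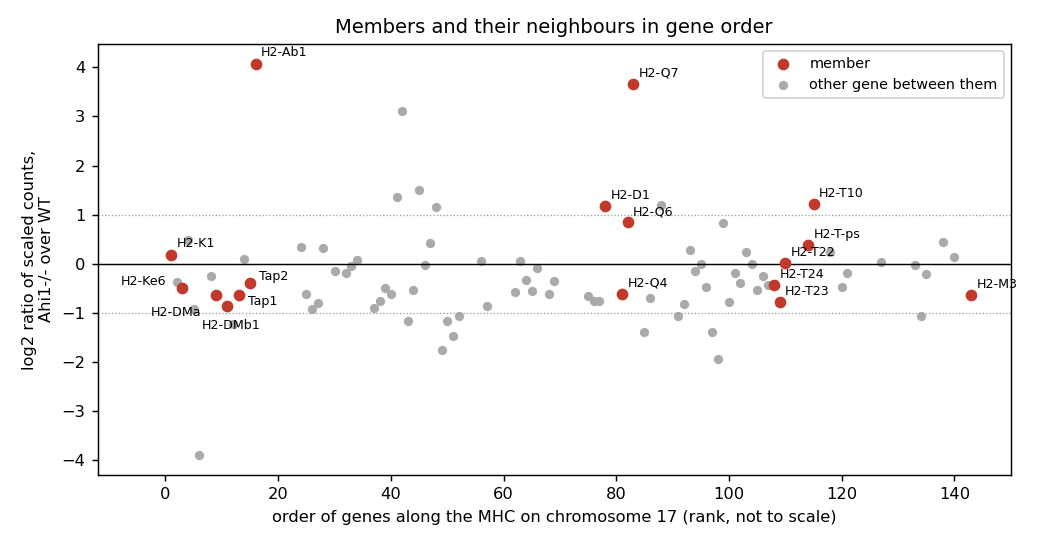
Log2 ratio of scaled counts, Ahi1-/- over WT, for the 17 members and 73 neighbours that reached 50 counts, in gene order along the MHC on chromosome 17 (rank among 145 genes in the GRCm38.p6 annotation, not to scale). H2-Ab1 (4.07) and H2-Q7 (3.67) stand above the members beside them, while H2-DMa, H2-DMb1, Tap1 and Tap2 lie between -0.85 and -0.40.

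Class II genes were scarce, and 2 of them differed widely in opposite directions. Of the 9, 4 reached 50 counts, and of these 1 was above WT by 2-fold or more and 1 below. Among all genes 16.0% were above and 10.3% below, and 4 genes are too few to describe the class. H2-Ab1 encodes the beta chain of the I-A molecule. It had 153 counts in the library labelled Ahi1-/- and 9 in WT, or 14.6 and 0.84 TPM (6.42 and 0.41 FPKM), and was 16.8-fold higher (log2 4.07, 3.11 to 5.23). Its partner H2-Aa, the I-A alpha chain, had 7 counts in the library labelled Ahi1-/- and 9 in WT (log2 -0.38, -2.04 to 1.22). The beta chain was thus far above the alpha chain in the library labelled Ahi1-/-, at 14.6 against 0.71 TPM, whereas in WT the levels were 0.84 and 0.89 TPM. No run of 50 bases in the H2-Ab1 transcript was shared with another gene. Cd74 encodes the invariant chain, which guards the groove of new class II molecules. It had 34 counts in the library labelled Ahi1-/- and 247 in WT, or 3.17 and 22.2 TPM (1.39 and 10.9 FPKM), 7.33-fold lower (log2 -2.87, -3.44 to -2.35).

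The remaining class II genes were lower or too scarce to compare. H2-DMa and H2-DMb1 encode chains of the peptide editor DM. H2-DMa had 145 counts in the library labelled Ahi1-/- and 222 in WT (log2 -0.63, -0.94 to -0.32), and H2-DMb1 had 38 and 68 (log2 -0.85, -1.47 to -0.26). H2-DMb2, a copy that shares 30.9% of its runs of 50 bases with other genes, had 3 counts in the library labelled Ahi1-/- and 13 in WT (log2 -2.13, -4.58 to -0.26). H2-Eb1 had 9 and 10 counts in the same order. H2-Ea, which RefSeq lists as a transcribed pseudogene, had 0 counts in the library labelled Ahi1-/- and 10 in WT, at least 3.36-fold lower against a floor of 3 counts in the library at 0. That value follows from the floor, and the 95% counting interval ends nearer to no difference, at log2 -1.18. H2-Oa, the alpha chain of the DM inhibitor DO, had 0 and 4 counts, which was not a detectable difference. Ciita, the class II transactivator, had 10 counts in the library labelled Ahi1-/- and 12 in WT (log2 -0.28, -1.65 to 1.06), and 0.17 and 0.14 TPM, so its direction differed between the units.

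Markers of leukocytes, the usual makers of class II, also differed between the libraries. Of 18 listed leukocyte markers, 17 had a row, and they summed to 420 counts in the library labelled Ahi1-/- and 651 in WT, with single values of 0 to 85 and 3 to 199. The B cell markers Cd79b and Ms4a1 were at 0 in the library labelled Ahi1-/- and had 22 and 4 counts in WT, and Cd79a had 8 and 66. The monocyte marker Cd14 had 85 and 199 counts, and the leukocyte gene Laptm5 had 26 and 53. Not all moved this way: the macrophage markers Adgre1 and Itgam, named after their values were seen, each had 39 counts in the library labelled Ahi1-/-, against 4 and 12 in WT. The pan-leukocyte marker Ptprc, named likewise, had 10 and 23. Among other listed myeloid markers, Csf1r had 76 counts in the library labelled Ahi1-/- and 109 in WT, and Cd68 had 56 and 50. Cx3cr1 (5 and 13), Fcer1g (15 and 24) and Tyrobp (13 and 18) had fewer counts than in WT, and Xcr1 (29 and 19) more. These were also named after their values were seen, so the macrophage markers showed no common direction. The 7 red cell markers summed to 107 counts in the library labelled Ahi1-/- and 7119 in WT, with Hba-a2 at 0 against 125. The 7 endothelial markers summed to 41 and 67, with Tie1 at 0 against 20, and the 5 epithelial ones to 689 and 290, with Krt5 at 1 against 0. The part of other cell types in the class II values was not tested.

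Genes that feed or control the pathway were mostly within 2-fold, and their counts below are to be read against the 16.0% of all genes higher and 10.3% lower. That reading is a description only, since these lists too were chosen with earlier results of these data known. Of 16 genes of the immunoproteasome, its activators and cytosolic peptidases, 3 were below WT by 2-fold or more and 0 above, and the median log2 ratio was -0.38. The immunoproteasome subunit Psmb9 had 41 counts in the library labelled Ahi1-/- and 95 in WT, Psmb10 had 273 and 628, and the activator subunit Psme1 had 877 and 1859. Among 22 measured regulators of MHC transcription, 4 were below WT by 2-fold or more and 0 above, and the median was -0.24. With DESeq2 size factors, upper-quartile scaling or TPM 3 were below, and with total counts 5; Irf2, at log2 -1.01, lies nearest to the threshold of the 4. The interferon regulatory factors Irf1 and Irf2 were 2.44-fold and 2.01-fold lower (587 and 1417 counts; 544 and 1086). Rfxap, a subunit of the RFX complex that binds MHC promoters, had 309 counts in the library labelled Ahi1-/- and 679 in WT, and the NF-kappaB precursor Nfkb1 had 2502 and 5191. Of 12 general folding genes of the endoplasmic reticulum, 0 were 2-fold apart, 10 had a log2 ratio above 0, and the median was 0.38. Among them P4hb had 32516 counts in the library labelled Ahi1-/- and 24686 in WT, and Hsp90b1 had 29529 and 22475.

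Lists around class II and around class I-like molecules held several genes that were 2-fold or more above WT, where 16.0% of all genes were above and 10.3% below. The lists were chosen with earlier results of these data known, so a difference from the share of all genes is a description only. Of 11 measured genes of the class II route, 4 were above WT by that rule and 1 below; the median log2 ratio was 0.61. The costimulatory ligand Cd80 had 196 counts in the library labelled Ahi1-/- and 1 in WT (log2 7.60, 5.11 to 12.91), and Cd40, a receptor of the TNF family, had 57 and 6. The lysosomal proteases Ctsd (11813 and 3238 counts) and Ctsb (12150 and 5915) were 3.62-fold and 2.04-fold higher. With total counts 3 genes of this list were above WT, and Ctsb lies nearest to the threshold. Ifi30, a thiol reductase of the class II route, was the lower gene, with 717 and 1445 counts, and was named after its value was seen. Of 8 class I-like genes without an H2 symbol, 4 were above WT and 0 below, and the median was 1.14. Ulbp1, a ligand of the activating receptor NKG2D, had 168 counts in the library labelled Ahi1-/- and 8 in WT (20.8-fold). Mr1, which presents vitamin B metabolites, had 291 and 16 (18.03-fold), the protein C receptor Procr 308 and 78 (3.91-fold), and Cd1d1, which presents lipids to natural killer T cells, 155 and 61 (2.52-fold).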

How the data were processed

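Messenger RNA of 1 library per group was analysed. The authors deposited expected counts (estimated read counts) and TPM for 17260 genes in one table, and FPKM for 3872 genes in another, per the file headers. RSEM 1.2.12, Bowtie2 2.2.5, HISAT2 2.0.4 and mm8 are listed, with no roles, per the submitters' processing notes; annotation, strand use and filters were not given in the sources used here. Heads CON and EXP were read as WT and Ahi1-/-, on which every direction rests. All 6 value columns were used.

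Expected counts were rounded and scaled by TMM (edgeR 4.0.16, R 4.3.3). A ratio is the scaled count in Ahi1-/- over that in WT, with an exact 95% Clopper-Pearson interval (scipy 1.17.1). A gene at 0 was set to a floor of 3 counts when the other library had more. Genes were counted as higher or lower at 2-fold or more, given 50 counts or more in whichever library was higher. No test is possible, so there are no p-values. The calculation was tested on simulated data.

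Members with 50 counts are named, scarcer ones where at 0 or with 5 or more counts (others beside them after their values were seen), and from each pathway list up to 4 genes with the largest ratios past 2-fold, or up to 2 with the most counts. The members and lists were chosen with earlier results of these data known. Chromosomes, gene order and promoters come from RefSeq GRCm38.p6, another build than mm8; 17210 gene identifiers matched. Transcripts were from GENCODE M21. Alternatives covered scaling (including DESeq2 1.42.0 size factors), unit, rounding, minimum count, fold, floor and near-identical copies.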

Additional observations from a re-analysis of the deposited data

How the results depend on the processing

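The calls of the 6 members at least 2-fold apart, and the directions of those 6, held under DESeq2 size factors, total counts, upper-quartile scaling, deposited TPM and unrounded counts. Members near 0 changed sign: Calr was at 0.0039 with DESeq2 size factors, 0.04 with upper-quartile scaling and 0.04 in TPM, H2-T22 at -0.10 and H2-Q9 at -0.02 with total counts, and Ciita at 0.17 in TPM. The median of the loading genes (-0.01) was 0.04 in TPM and -0.12 with total counts, and that of nonclassical genes (0.02) was -0.10 with total counts. At a minimum of 200 counts the nonclassical median was -0.53, over H2-T22, H2-T23, H2-Q4 and H2-T24 only. It was -0.54, over H2-T24 and H2-M3 only, without the 10 H2 genes that share at least 25% of their 50-base runs. Without those 10, a choice made after seeing the data, 2 members were higher. With the chromosome 17 median subtracted the median of all members was 0.13, and with that of the interleaved neighbours, added after seeing the data, 0.18.

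The number of members called depended on the minimum and the threshold. At 10 counts 5 were higher and 5 lower, with no minimum 5 and 7, and at 200 counts 1 and 2. At 1.5-fold 6 of the 26 members were higher and 8 lower. For all genes, 2741 were higher and 1647 lower at 10 counts, 3111 and 2063 with no minimum, and 1266 and 961 at 200 counts. At 1.5-fold 2850 of the 12075 genes were higher and 2606 lower. Shares at the other minimums were not computed, so those counts do not compare members with all genes. The median of all genes was -0.16 with total counts, a shift of over 0.1 on the log2 scale relative to which ratios on that scale should be read; it was 0.0084 with upper-quartile scaling, 0.0082 in TPM, -0.0129 at a minimum of 10 counts and with no minimum, and -0.0732 at 200. That of chromosome 17 was -0.44 with total counts and -0.26 in TPM. In the list of folding genes 1 was higher with DESeq2 size factors, upper-quartile scaling or TPM, and 2 were lower with total counts; of the regulators 3 were lower with DESeq2 size factors, upper-quartile scaling or TPM and 5 with total counts; of the class II route 0 were lower with upper-quartile scaling or TPM, 3 higher with total counts and 2 higher at 200 counts, and of the class I-like genes 2 were higher at 200 counts. A floor of 1 count affected 3 members at 0 and changed no direction. The cause of these changes was not tested beyond what each setting removes.

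The alternative that leaves out copies by protein identity was not run, since no protein table was used here. No paired analysis was possible because each group has 1 library. Depth limits the 19 members under 50 counts.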
